A study of Mus musculus with 6 samples.

Results

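The genes described here are the PGC-1 coactivators Ppargc1a, Ppargc1b and Pprc1 and the factors through which they reach mitochondrial genes: the estrogen-related receptors Esrra, Esrrb and Esrrg, the nuclear respiratory factors Nrf1 and Gabpa, and the mitochondrial transcription factor Tfam. They were chosen by name with earlier results of these same arrays in view, so the differences between the genotypes are given below as values with their errors and carry no test. Every probe set annotated to exactly 1 of the 9 symbols was taken, which gave 23 probe sets of 45037 tested and 9 genes of 18193 named. The tissue was the upper portion of hearts of 9-month-old mice, stopped in diastole with potassium chloride, and RNA judged adequate in quality went onto 1 Affymetrix array per heart. The 3 GRK2+/- mice were heterozygous for the targeted allele Adrbk1tm1Mca (Grk2, a kinase that desensitises beta-adrenergic and other receptors) on a C57BL/6J background reached by many generations of backcrossing, and the 3 wild-type (WT) mice were C57BL/6J littermates. The allele was inherited and not confined to any heart cell type, the labels name no treatment that separates the groups, and the sex of the mice is not given in them. Values are log2 expression after RMA, a method that corrects background and summarises the probes of a probe set, so differences are taken within a probe set. Where a level is set beside the median probe set of the table, that is a rough mark of signal and no comparison of amounts between genes.

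PGC-1 proteins do not bind DNA themselves. They dock on nuclear receptors and other factors, recruit histone acetyltransferases and the Mediator complex, and raise transcription of genes for fatty acid oxidation and the respiratory chain, a programme on which the continuously working heart depends. ERR proteins are orphan nuclear receptors and the main partners at oxidative genes, NRF1 and GABP bind promoters of nuclear genes for respiratory subunits and mitochondrial import, and TFAM is carried into mitochondria, where it packages mitochondrial DNA and starts its transcription.

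Because several of these genes are textbook targets of the others, their promoter windows were searched for binding letters on both strands. RefSeq windows (build GRCm38.p6, 250 bases before to 50 after a start) were matched for 8 of the 9 genes, all but Ppargc1b, and gave 13 windows. The motifs were settled on after the windows had been searched. The 4 windows shown were picked for matches to the letters of CREB (Ppargc1a), NRF1 (Esrra) and ETS factors such as GABP (Gabpa and Tfam). They are printed 5′ to 3′ on the gene's strand, and the capitals mark the match named beside each.
Ppargc1a, chr5:51567676-51567975, minus strand, a CREB-type TGACG on the opposite strand: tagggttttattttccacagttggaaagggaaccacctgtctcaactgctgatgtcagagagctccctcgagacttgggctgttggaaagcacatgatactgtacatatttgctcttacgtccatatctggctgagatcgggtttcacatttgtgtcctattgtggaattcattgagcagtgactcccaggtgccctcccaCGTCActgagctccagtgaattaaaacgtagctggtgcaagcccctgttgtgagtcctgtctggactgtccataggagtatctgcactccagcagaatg
Esrra, chr19:6921759-6922058, minus strand, the NRF1 letters GCGCATGC on the opposite strand: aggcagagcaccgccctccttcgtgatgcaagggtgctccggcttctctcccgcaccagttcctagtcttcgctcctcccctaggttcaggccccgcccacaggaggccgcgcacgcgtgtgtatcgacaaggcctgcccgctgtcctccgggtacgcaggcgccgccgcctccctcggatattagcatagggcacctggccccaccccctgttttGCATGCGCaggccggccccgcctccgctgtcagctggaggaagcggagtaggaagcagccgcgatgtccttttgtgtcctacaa
Gabpa, chr16:84834874-84835173, plus strand, the ETS core CGGAAG on the opposite strand: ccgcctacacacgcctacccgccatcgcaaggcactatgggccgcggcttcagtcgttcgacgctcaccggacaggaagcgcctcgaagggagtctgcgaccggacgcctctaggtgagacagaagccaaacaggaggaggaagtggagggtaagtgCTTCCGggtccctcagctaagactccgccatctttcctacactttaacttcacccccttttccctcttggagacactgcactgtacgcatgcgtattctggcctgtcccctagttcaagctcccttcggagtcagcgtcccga
Tfam, chr10:71237995-71238294, minus strand, the GABP letters CCGGAAGT: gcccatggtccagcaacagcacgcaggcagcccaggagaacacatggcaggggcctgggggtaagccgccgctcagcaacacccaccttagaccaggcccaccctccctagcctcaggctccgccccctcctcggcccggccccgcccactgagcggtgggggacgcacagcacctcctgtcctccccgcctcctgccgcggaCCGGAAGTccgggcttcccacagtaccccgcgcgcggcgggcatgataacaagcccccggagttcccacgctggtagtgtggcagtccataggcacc

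The GABP letters in the Tfam window began 47 bases before the start and were present in 3.89% of all 32851 promoter windows of the same length. The NRF1 letters of Esrra began 34 bases before the start and were present in 2.71% of all windows, while the longer form GCGCATGCG was in none of the 13 windows and in 1.75% of all. The shorter CGGAAG, which lies inside the GABP letters, was in the windows of Gabpa and Tfam and in 16.9% of all. TGACG was in the window of Ppargc1a and in 1 of the 2 windows of Esrrb, and in 20.8% of all. The full CREB letters TGACGTCA (1.79% of all windows) and the ERR letters TNAAGGTCA (1.28%) were in none of the 13. These are matches of letters in short windows and carry no measurement of binding.

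All 6 arrays were alike in scale, with medians between 6.25 and 6.31 and correlations between hearts over probe sets from 0.99358 to 0.99673. No probe set was annotated to Grk2, so the genotype labels were not checked against it. Cardiomyocyte markers were read at high signal (Myh6 14.88 in GRK2+/- and 14.83 in WT hearts, Tnnt2 14.78 in both). Of 4 atrial markers Myl7 (5.61 and 5.50) and Sln (5.71 and 5.65) lay below the median probe set (6.28), while Myl4 (7.24 and 7.10) and Nppa (9.97 and 11.17) lay above it, and Nppa was lower in GRK2+/- hearts by 1.20 ± 0.27 (SE) without overlap. With limma and Benjamini-Hochberg adjustment 0 probe sets (0%) and 0 genes (0%) passed an adjusted p of 0.05, with 5780 probe sets at an unadjusted p under 0.05. The number of arrays limits the precision, and in whole tissue fewer cells of a type and less RNA per cell cannot be told apart. Other features differed between the groups in the same hearts. The 6 measured smooth muscle and pericyte markers had a mean level of 10.21 to 10.45 in GRK2+/- and 9.99 to 10.13 in WT hearts, and all 6 differed in that direction. The neutrophil genes S100a8 and S100a9, both of 2 listed, had 8.62 to 10.04 against 6.95 to 7.60. Without overlap between the groups, the endothelial receptor Kdr (0.55), the epicardial factor Wt1 (0.51, with all 3 epicardial markers above 0) and the cardiomyocyte channel Ryr2 (0.35) were also higher, and skeletal actin Acta1 was lower (-1.33). Of 5 endothelial markers 4 were above 0, while Pecam1 was lower without overlap (-0.12). Of 7 cardiomyocyte markers 4 were above 0 and 3 below, and 5 differed by less than 0.1. Of 5 skeletal muscle markers 3 were above 0 and 2 below, the 2 without overlap. For beta-actin, a control read at both ends of its messenger as a sign of RNA quality, the 3′ end exceeded the 5′ end by 0.98 ± 0.08 in GRK2+/- and 0.78 ± 0.04 in WT hearts (SD, n = 3 each), while the same quantity was 0.030 and 0.0051 for Gapdh, 1.77 and 1.75 for Pcx, and 1.23 and 1.33 for Tfrc, the last in the opposite direction. The part of these in the results below was not tested. Brown fat, a tissue rich in PGC-1, was looked for by 4 measured markers of 5 listed. Ucp1 (5.56 in GRK2+/- and 5.64 in WT hearts), Adipoq (4.48 and 4.50) and Dio2 (5.25 and 5.24) lay below the median probe set, Cidea (10.03 and 10.05) did not, and the mean of the 4 was 6.24 to 6.45 against 6.29 to 6.42.

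Of the 9 genes Ppargc1b, which encodes PGC-1beta, had the largest difference, Pprc1 a smaller one in the same direction, and Ppargc1a none that its probe sets shared. Ppargc1b is measured by 1 probe set, designed on its RefSeq messenger. It read 10.81, 10.97 and 11.21 in GRK2+/- hearts 1, 2 and 3 and 10.27, 10.18 and 10.02 in WT hearts 1, 2 and 3. Each GRK2+/- heart was above each WT heart, and the gap between the groups was wider than the range inside either. The means were 11.00 ± 0.20 and 10.16 ± 0.13 (SD, n = 3 each), a difference of 0.84 ± 0.11 (SE) or 1.79-fold. Of all 45037 probe sets, 37 (0.0822%) differed by more in either direction. Leaving out any 1 heart kept the difference between 0.73, without GRK2+/- heart 3, and 0.93, without GRK2+/- heart 1.

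Pprc1 encodes PRC, a coactivator of the same family that responds to growth signals and works with NRF1. Its single probe set read 8.43, 8.54 and 8.42 in GRK2+/- hearts and 8.33, 8.04 and 8.11 in WT hearts. The groups did not overlap, although WT heart 1 came within a short distance of the lowest GRK2+/- heart. The difference was 0.30 ± 0.089 (SE, n = 3 per group), or 1.23-fold, with 0.24 to 0.39 when 1 heart was left out.

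Ppargc1a encodes PGC-1alpha, the founding member, which is induced by cyclic AMP, exercise and fasting. Its 5 probe sets did not all point one way. The brightest read 10.48, 10.07 and 10.45 in GRK2+/- hearts against 10.29, 10.34 and 10.35 in WT hearts, a difference of 0.0077 ± 0.11 (SE, n = 3 per group). The next brightest pair differed by -0.14 ± 0.12 and -0.0030 ± 0.11. In these 3 probe sets the groups overlapped, and GRK2+/- heart 2 was the lowest of all 6 hearts while GRK2+/- heart 1 was the highest. The spread among GRK2+/- hearts was wide (SD 0.23 for the brightest) beside that among WT hearts (SD 0.032). The remaining probe sets, which share 1 cDNA record and so are not independent, were higher by 0.21 ± 0.085 and 0.18 ± 0.091. The first of them, of a type that Affymetrix marks as possibly sharing probes with other sequences, read 8.58, 8.42 and 8.73 against 8.38, 8.35 and 8.38 and did not overlap between the groups. The other read 8.47, 8.28 and 8.62 against 8.31, 8.22 and 8.30, where GRK2+/- heart 2 lay inside the WT range. GRK2+/- heart 2 was thus the lowest of its group in all 5 probe sets. Without it the brightest probe set differed by 0.14 in place of 0.0077.

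**Figure D1:**
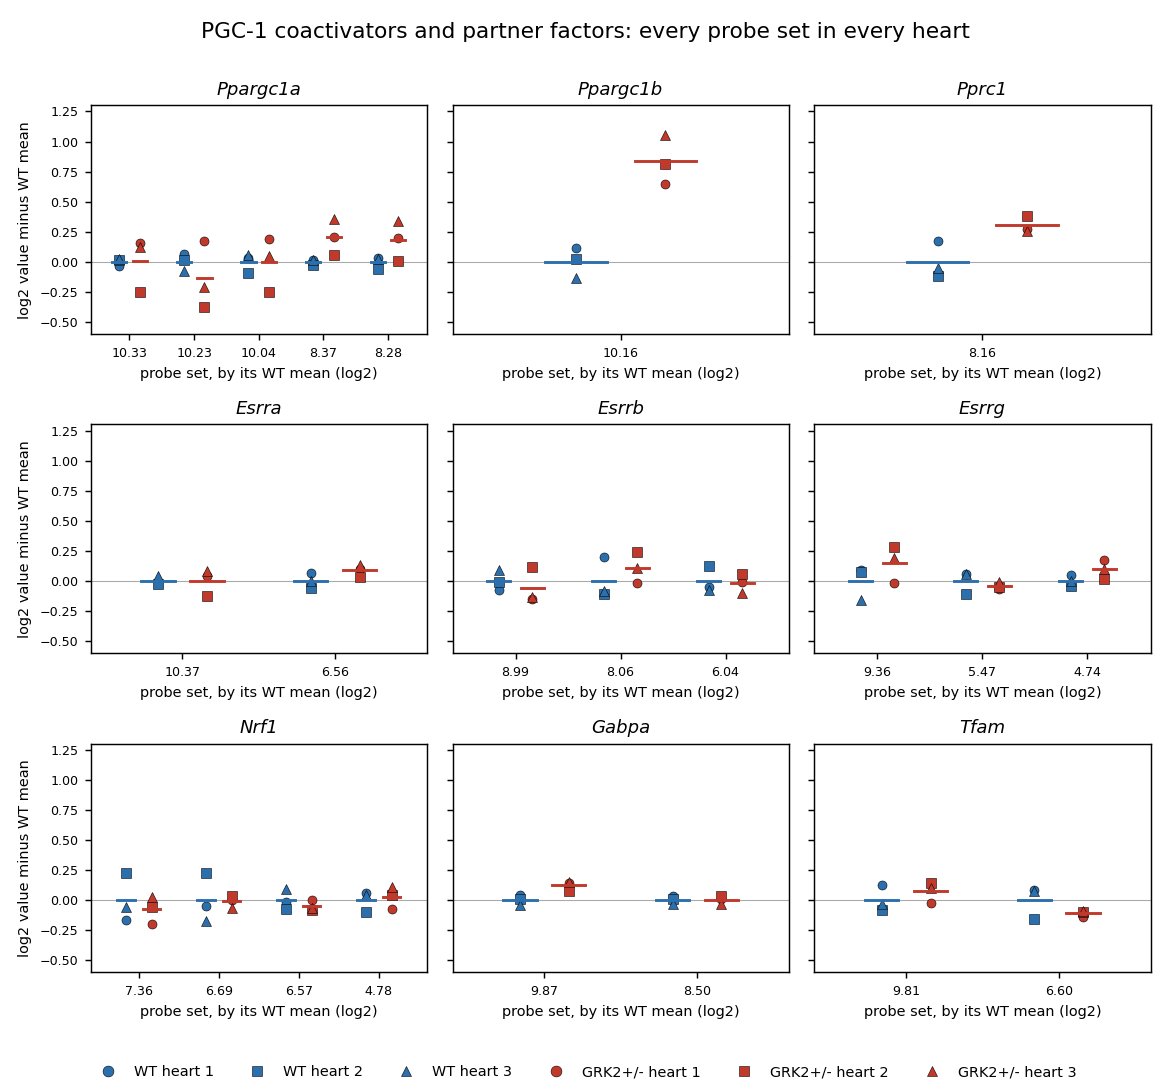
Each panel is a gene and each position on the horizontal axis a probe set, labelled by its WT mean on the log2 scale; the vertical axis is a heart's log2 value minus that WT mean, with WT hearts in blue, GRK2+/- hearts in red, a symbol for each heart number and short lines for group means. The GRK2+/- hearts of Ppargc1b lie 0.65, 0.81 and 1.05 above the WT mean, and those of Pprc1 between 0.26 and 0.38 above it.

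Of the 23 probe sets, 4 were higher in every GRK2+/- heart than in every WT heart and 0 were lower, and the other 19 overlapped. Over all probe sets 6.76% were higher and 11.2% lower in this sense, or 9.4% and 7.62% once array medians were set equal. Since the genes were chosen with this contrast in view, nothing is read from the count. The 4 were the probe sets of Ppargc1b and Pprc1, 1 of 5 for Ppargc1a and 1 of 2 for Gabpa. Quantile normalisation left the first 2, beside 8.57% higher and 9.73% lower of all probe sets. Without GRK2+/- heart 2 the count was 10 (9 higher and 1 lower, beside 10.4% and 15.9% of all probe sets), and without WT heart 1 it was 8, all higher (13.2% and 20.7%). The median difference of the 23 was 0.0077, beside -0.021 over all probe sets, and 13 were above 0 and 10 below.

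Esrra, the receptor through which PGC-1alpha drives much of the oxidative programme and whose own gene is among its targets, read 10.40, 10.24 and 10.45 in GRK2+/- and 10.36, 10.34 and 10.40 in WT hearts at its brightest probe set. The difference of -0.0019 ± 0.077 (SE, n = 3 per group) was smaller than its error, and GRK2+/- heart 2 was again the lowest of the 6 hearts. The dimmer probe set of Esrra differed by 0.087 ± 0.070, with overlap.

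Esrrg, the ERR of highly oxidative tissues, read 9.33, 9.64 and 9.54 against 9.44, 9.43 and 9.19 at its brightest probe set, a difference of 0.15 ± 0.099. GRK2+/- hearts 2 and 3 were above all WT hearts and GRK2+/- heart 1 was inside their range. Its other probe sets, at WT means of 5.47 and 4.74, lay below the median probe set and differed by -0.044 ± 0.074 and 0.099 ± 0.072. Esrrb, better known from stem cells and the placenta, had 3 probe sets with differences of -0.057 ± 0.089, 0.11 ± 0.10 and -0.018 ± 0.081. All 3 overlapped, and the first read 8.85, 9.11 and 8.86 in GRK2+/- against 8.92, 8.98 and 9.08 in WT hearts. That probe set is of the type that Affymetrix marks as possibly sharing probes with other sequences. The last, designed on the RefSeq messenger, had means of 6.02 in GRK2+/- and 6.04 in WT hearts, below the median probe set.

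Nrf1, the nuclear respiratory factor proper (distinct from the stress factor Nfe2l2), had 4 probe sets whose differences ran from -0.079 to 0.026 with SEs of 0.073 to 0.11. The brightest read 7.16, 7.31 and 7.38 in GRK2+/- and 7.20, 7.59 and 7.30 in WT hearts, and the highest value was that of WT heart 2. Its dimmest probe set, at 4.78 in WT hearts, lay below the 25th percentile of level (5.07).

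Gabpa encodes the DNA-binding subunit of GABP, also called NRF2 alpha. Its brighter probe set read 10.01, 9.95 and 10.03 in GRK2+/- and 9.91, 9.88 and 9.83 in WT hearts. The groups were tight and did not overlap, and the difference was 0.12 ± 0.067 (1.09-fold). The other probe set, designed on the same RefSeq messenger, read 8.51, 8.53 and 8.47 against 8.53, 8.50 and 8.47 and differed by 0.0023 ± 0.066, so the mean of both was 0.062.

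Tfam, at the end of the chain, read 9.78, 9.95 and 9.91 in GRK2+/- and 9.93, 9.72 and 9.77 in WT hearts at its brighter probe set. The difference of 0.072 ± 0.082 did not exceed its error, and the highest and lowest WT hearts enclosed 2 of the 3 GRK2+/- hearts. The dimmer probe set pointed the other way, at -0.11 ± 0.081, with overlap.

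**Figure D2:**
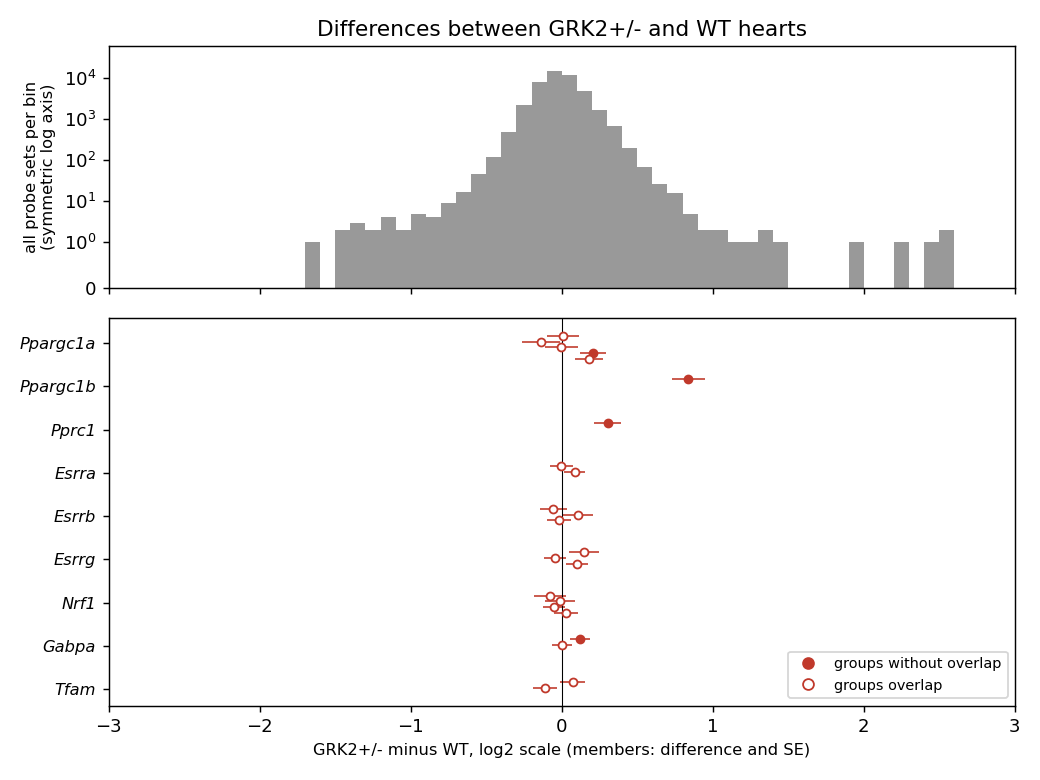
The upper panel counts all 45037 probe sets by their difference, GRK2+/- minus WT on the log2 scale, in bins of 0.1 on a symmetric log axis; the lower panel gives each member probe set with its SE on the same horizontal axis, filled where the groups do not overlap. Ppargc1b at 0.84 stands in the sparse right tail, Pprc1 at 0.30 on its flank, and 20 of the 23 probe sets lie within 0.2 of 0.

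The surroundings of the family were read from 6 lists of regulators, partners and targets, with 121 of 128 genes measured and the brightest probe set taken for each. With limma and Benjamini-Hochberg adjustment over 18193 genes none of the 121 passed (smallest adjusted p = 0.0961). At an unadjusted p under 0.05, 21 were higher, 1 was lower and 99 did not pass, where 6.3% of all genes were higher and 7.7% lower (8.5% and 4.89% after centring). The median of all genes was -0.019, and 0.010 after centring.

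Of the 21 genes that were higher in GRK2+/- hearts, 13 belonged to the coregulators and upstream regulators of PGC-1. Of 34 measured in that list, 13 were higher, 0 lower and 21 did not pass at the unadjusted threshold, and the list median was 0.14. Nrip1 (RIP140), a corepressor that opposes PGC-1 at oxidative genes, read 9.11, 9.22 and 9.18 in GRK2+/- against 8.77, 8.80 and 8.54 in WT hearts. The 2 groups stood clear of each other, with a difference of 0.47 ± 0.084 (SE, n = 3 per group). Fbxw7, the ubiquitin ligase subunit that marks PGC-1alpha for breakdown, was higher by 0.33 ± 0.070, and Mef2d, a muscle factor that binds the Ppargc1a promoter, by 0.31 ± 0.069. Probe sets of a gene did not always point the same way: 3 of 6 pointed this way for Nrip1, 2 of 3 for Mef2d and both for Fbxw7. Averaging all probe sets of each gene gave a count of 6 in place of 13 and a median of 0.044. Beside that count of 6, 4.82% of all genes were higher. Without GRK2+/- heart 1 the count was 8 (7.94% of all genes), without WT heart 2 it was 8 with 1 lower (4.69% higher), without WT heart 3 it was 7 (3.91%), and it was 10 to 16 without each of the other hearts (4.22% to 7.81%).

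Among 20 other transcription factor partners 5 were higher, 1 was lower and 14 did not pass at the unadjusted threshold, with a median of 0.028. Nr0b2 (SHP), a receptor without a DNA-binding domain that represses other nuclear receptors, was the lower one. It read 9.00, 8.65 and 8.89 in GRK2+/- and 9.31, 9.18 and 9.28 in WT hearts, without overlap, a difference of -0.41 ± 0.095. Srebf2, which turns on sterol genes, differed by 0.34 ± 0.079 and the thyroid hormone receptor Thra by 0.26 ± 0.071, both higher and each with all of its probe sets in that direction. Srebf1, whose lipogenic action PGC-1beta coactivates, was higher by 0.25 ± 0.078.

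The machinery that transcribes and copies mitochondrial DNA had 0 of 20 genes higher and 0 lower at the unadjusted threshold, with a median of 0.025 and differences from -0.14 to 0.092. The 3 with the smallest p were all below 0 and did not pass: Mrpl12, a ribosomal protein that also binds the mitochondrial RNA polymerase, at -0.13 ± 0.066, the transcription factor Tfb2m at -0.14 ± 0.075, and the elongation factor Tefm at -0.12 ± 0.079. Tfb2m and Tefm overlapped between groups, while Mrpl12 read 11.29, 11.25 and 11.36 against 11.46, 11.43 and 11.41 and did not. With all probe sets of a gene averaged, 1 gene was lower (8.34% of all genes) and the list median was -0.0082. Reading each gene at its most variable probe set gave 1 higher (6.84%) and a median of 0.0087. Without GRK2+/- heart 2 or WT heart 3, 1 was lower (5.63% and 4.96%).

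Of 23 measured energy metabolism genes known as targets of ERR and PGC-1, 1 was higher, 0 lower and 22 did not pass at the unadjusted threshold, the median was 0.0020, and 21 differed by less than 0.1 in size. Pdk4, the kinase that switches off pyruvate dehydrogenase in favour of fat, was the higher one, with 12.87, 13.20 and 12.92 in GRK2+/- against 12.31, 11.54 and 12.68 in WT hearts. The difference of 0.82 ± 0.23 came with a wide WT group (SD 0.58), in which heart 2 was the lowest. Mfn2, a mitochondrial fusion protein, and the oxidase subunit Cox7a1 followed at 0.10 ± 0.072 and 0.075 ± 0.067, with overlap. In 20 of the 23 the mean level was above 13, on a table whose highest value is 15.11. Whether a change goes unseen at such levels was not tested. With all probe sets of a gene averaged, Hadhb, of fatty acid oxidation, differed by 0.17 in place of -0.0062. Ogdh, of the citric acid cycle, differed by 0.14 in place of 0.0071. Mfn2 moved the other way, to 0.029 in place of 0.10, and the list median with averages was 0.0022. The count of genes higher was 2 with such averages (4.82% of all genes) and 4 when each gene was read at its most variable probe set (6.84% of all genes).

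Of 16 measured targets of NRF1 or GABP, 1 was higher, 0 lower and 15 did not pass, with a median of 0.0018. Among the 15 was the oxidase subunit Cox7c, whose brightest probe set lay below the median probe set, at 5.28 in GRK2+/- and 5.37 in WT hearts. In 9 of the 16 the mean level was above 13, and Atp5g1, an ATP synthase subunit, differed by 0.00026 at its brightest probe set and by 0.16 with both averaged. Reading each gene at its most variable probe set gave 2 higher (6.84% of all genes) and a median of 0.037. Averages gave 0 higher (4.82% of all genes) and a median of 0.0050. The higher gene at the brightest probe set was Cox17, a copper chaperone of cytochrome oxidase, at 0.19 ± 0.074, or 0.11 with its probe sets averaged. But no gene of the list was higher at that threshold when GRK2+/- heart 2 or 3 or WT heart 2 or 3 was left out. Alas1, the first enzyme of haem synthesis and a known PGC-1alpha target, read 10.84, 10.20 and 10.71 in GRK2+/- and 10.86, 10.94 and 10.74 in WT hearts. Its lowest value was in GRK2+/- heart 2, the heart with the lowest value at the 3 brightest probe sets of Ppargc1a. The highest values were in different hearts, WT heart 2 for Alas1 and GRK2+/- heart 1 for those probe sets. Whether the genes vary together was not tested, and the Alas1 difference of -0.26 ± 0.14 did not pass. Cox6a1 differed by 0.11 ± 0.079 and overlapped.

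Of 9 measured antioxidant, uncoupling and secreted genes, 1 was higher at the unadjusted threshold and 8 did not pass, with a median of -0.049. The median was 0.047 with all probe sets of a gene averaged and 0.096 with the most variable one. The count was 2 after centring (8.5% of all genes higher), quantile normalisation (7%) and removal of dim probe sets (8.25%). It was also 2 without GRK2+/- heart 3 (4.86%) and without WT heart 3 (3.91%). Ucp3, a mitochondrial carrier induced by fatty acids, differed by 0.64 ± 0.18. It read 8.76, 9.41 and 9.35 in GRK2+/- and 8.35, 8.39 and 8.86 in WT hearts, so GRK2+/- heart 1 lay below WT heart 3. Catalase, Cat, differed by 0.18 ± 0.081 and the angiogenic factor Vegfa by 0.12 ± 0.078, and neither passed. The groups did not overlap for Cat, with 12.09, 12.13 and 12.00 against 11.94, 11.75 and 11.98, and overlapped for Vegfa.

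**Figure D3:**
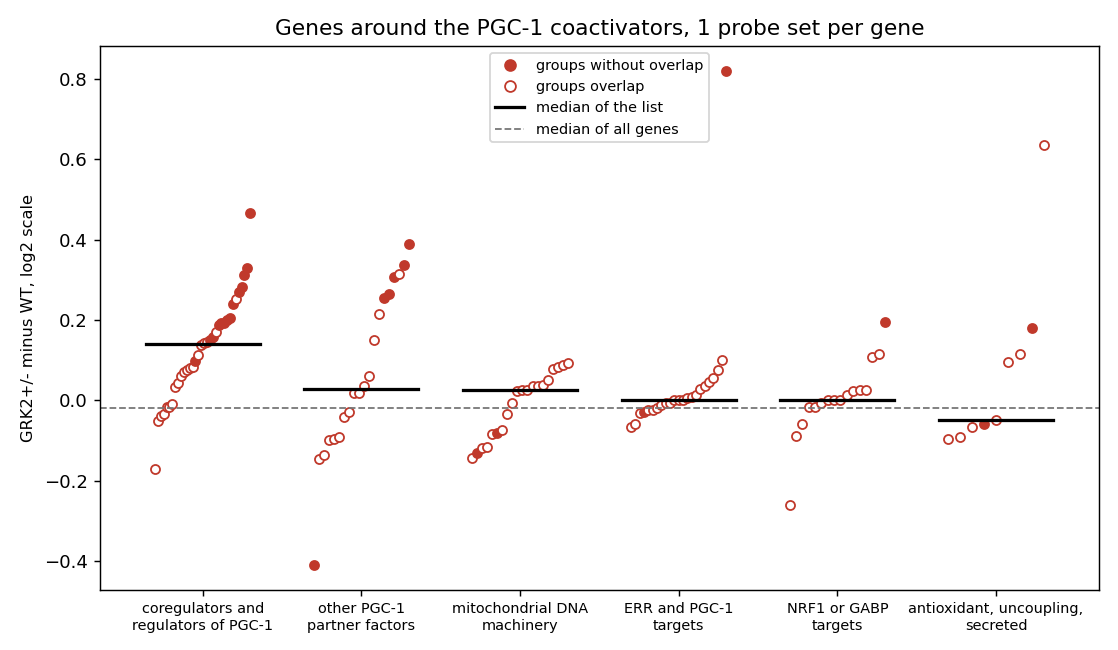
Each circle is a gene at its brightest probe set, placed by list on the horizontal axis and by its difference, GRK2+/- minus WT on the log2 scale, on the vertical axis; filled circles mark groups without overlap, black bars the list medians and the dashed line the median of all genes (-0.019). The regulator list has its median at 0.14, while the medians of the ERR and NRF1 or GABP targets are 0.0020 and 0.0018, and Pdk4 is the highest ERR target at 0.82.

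**Figure D4:**
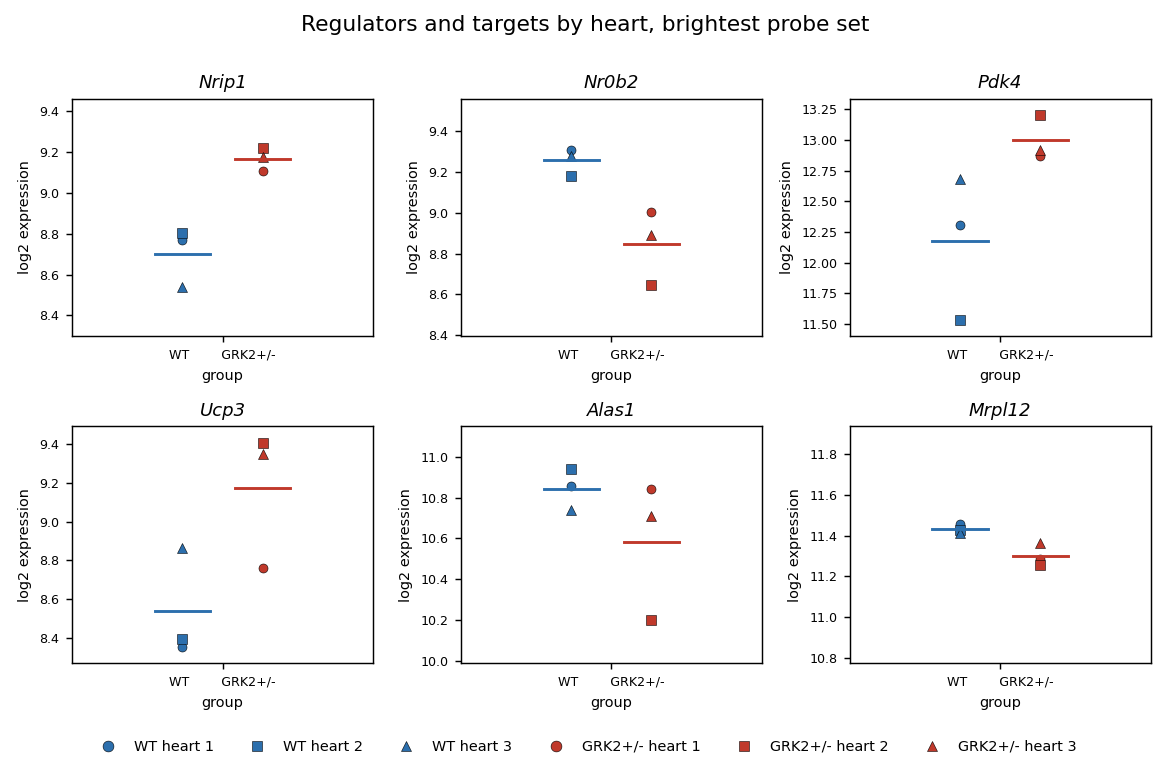
Log2 values of 6 genes named in the text, by heart, with WT hearts in blue, GRK2+/- hearts in red, a symbol for each heart number and lines for group means; each panel has its own vertical axis. Nrip1, Nr0b2, Pdk4 and Mrpl12 show groups without overlap, whereas Ucp3 and Alas1 overlap, and GRK2+/- heart 2 is the lowest for Alas1.

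The genes whose values followed each coactivator most closely over the 6 arrays were listed by Pearson correlation, as a description over hearts that share the genotype contrast. For Ppargc1b they were Foxn3 (r = 0.996), Tmem47, Rasgrf2, Derl1 and Rbm7 (r = 0.994 each), which were higher in GRK2+/- hearts by 0.26 ± 0.068, 0.37 ± 0.081, 0.43 ± 0.078, 0.32 ± 0.068 and 0.21 ± 0.065, all less than Ppargc1b itself. For Pprc1 they were Hnrnpu (r = 0.996), Gna13 (0.995), Mtres1 (0.989), Bod1l (0.988) and Otud1 (0.988), with differences of 0.10 to 0.42. For Ppargc1a they were Nkx2-2 and Preb (r = 0.988 each), Kcng1 (0.985), Cdh23 (0.977) and Chst8 (0.976), with differences from -0.010 to 0.026. The levels of Nkx2-2 (4.51 in GRK2+/- and 4.49 in WT hearts), Chst8 (4.69 and 4.70) and Kcng1 (5.81 and 5.81) were below the median probe set. With 6 arrays and 18193 genes, correlations this high are a ranking and nothing more.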

How the data were processed

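Affymetrix arrays of 3 GRK2+/- and 3 WT hearts were analysed. Values were used as deposited, on a log2 scale that the authors made with RMA, per the submitters' processing notes, which also name limma. Neither a version nor joint normalisation of the arrays is stated there. After removal of 64 control probe sets, 45037 were fitted with limma version 3.58.1 under R version 4.3.3 (lmFit with eBayes; Benjamini-Hochberg over all probe sets or all 18193 genes; threshold 0.05), and SEs come from that fit. The platform annotation gave 34945 of them 1 gene symbol, updated by Entrez identifier through RefSeq (GRCm38.p6). Genes outside the family are represented by their probe set of highest mean. The members and lists were chosen with earlier results of these data known. The text names all members, the 3 genes of each list with the smallest p, and the 5 genes best correlated with each coactivator. Srebf1, Hadhb, Ogdh, Atp5g1 and Cox7c were added after their values were seen, and marker genes serve as checks. Nothing in the labels says whether the hearts of a group came from separate litters, so the spread between these hearts is all that a p-value measures. The smallest two-sided p of an exact permutation test of 3 against 3 is 0.1. Alternatives were median centring, quantile normalisation, a mean-dependent prior, removal of dim probe sets, other choices of probe set, omission of each heart, and a replicate block.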

Additional observations from a re-analysis of the deposited data

How the results depend on the processing

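The count of probe sets past the adjusted threshold, 0 as reported, was 22 under a mean-dependent prior and ran from 0 to 41 when 1 heart was left out (41 without GRK2+/- heart 1, 9 without GRK2+/- heart 2, 6 without GRK2+/- heart 3). It stayed 0 with centring, quantile normalisation, removal of dim probe sets and the replicate block. The 121 regulator, partner and target genes gave 0 in all 13 alternatives. The count of member probe sets without overlap, 4 as reported, was 2 after quantile normalisation, beside 8.57% higher and 9.73% lower of all probe sets. It was 4 to 10 when 1 heart was left out, beside 9.86% to 13.6% higher and 14.9% to 20.7% lower of all. Hearts share only their numbers across groups: deviations of same-numbered hearts correlated at -0.14, -0.020 and 0.0095, and with the replicate block 5261 probe sets, in place of 5780, had an unadjusted p under 0.05. Ppargc1b (0.73 to 0.93) and Pprc1 (0.24 to 0.39) kept their direction in the 8 of 12 alternatives that could alter their single probe set's value. In both, each GRK2+/- heart was above each WT heart, so leaving out a heart could not have changed the sign. At the brightest probe set or the mean of all, Esrrg (0.068 to 0.23) and Gabpa (0.062 to 0.15) kept their direction as well. The brighter Gabpa probe set did not overlap, so leaving out a heart could not change its sign either. The dimmer one took both signs (0.0023 as reported, -0.022 after quantile normalisation). The Esrrg probe set with a WT mean of 5.47 was below 0 throughout (-0.044 as reported). Ppargc1a (-0.14 to 0.14), Esrra (-0.045 to 0.061), Esrrb (-0.14 to 0.11), Nrf1 (-0.16 to 0.033) and Tfam (-0.11 to 0.13) took both signs. List medians took both signs as well, except that of the regulators (0.044 to 0.18). The causes were not tested. Of the 23 probe sets 4 lay below the median level, where signal over background limits what can be seen.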
